A study of Mus musculus with 4 samples.

Results

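The 10 genes described here code for proteins of the smooth muscle contractile apparatus: Acta2, Myh11, Tagln, Cnn1, Pln, Lmod1, Tpm2, Des, Myl9 and Actn1. They were chosen by symbol among the 31053 mouse genes counted in each library, and all 10 were found once. Their UMIs (unique molecular identifiers, each standing for 1 captured RNA molecule) were summed per library over the cells of each class. Single-cell RNA sequencing had been carried out on the ipsilateral brain hemisphere of male C57/BL6 mice, 8 weeks old by the labels, after transient middle cerebral artery occlusion (tMCAO), in which a filament blocks the artery and is then withdrawn so that blood flows again. The 4 libraries were 1 of a sham group, operated in the same way but without the occlusion, and 1 each taken 1, 3 and 7 days after the occlusion. No genetic change is given for any of the animals, and the sources differ on the day at which the sham library was taken. How many mice went into a library is not given in the sources used here, so each comparison is between single libraries, with no replicate and no test.

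Smooth muscle cells wrap arteries and arterioles, and pericytes sit on capillaries. Together these are the mural cells, which set vessel diameter and so the blood flow of the brain. A smooth muscle cell contracts when calcium activates the kinase that phosphorylates the myosin regulatory light chain, and myosin then pulls on actin filaments anchored in dense bodies. Many genes of this apparatus are switched on by serum response factor with its partner myocardin, which bind a short AT-rich element called the CArG box, and smooth muscle cells are known to lower such genes when they leave the contractile state.

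Because the CArG box is the shared control element of this family, the 250 bases before each gene's start in the RefSeq promoter table (GRCm38.p6) were searched for it. The table held 8 of the 10 genes. The box has 10 letters and is its own reverse complement, so both strands give the same matches. An exact box was found in Myl9, and boxes with 1 mismatch were found in Acta2, Lmod1 and Myl9. Among all 32851 promoters in the table, 1.47% held an exact box and 18.6% held one with up to 1 mismatch. The matches are shown in windows of 30 bases, 5′ to 3′ on the strand of the gene, with the box in capitals.
Myl9, 161 bases before the start, chr2:156775293-156775322, plus strand: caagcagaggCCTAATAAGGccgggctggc
Myl9, 99 bases before the start, chr2:156775355-156775384, plus strand: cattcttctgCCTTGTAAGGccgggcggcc
Acta2, 84 bases before the start, chr19:34255438-34255467, minus strand: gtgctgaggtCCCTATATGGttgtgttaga
Acta2, 34 bases before the start, chr19:34255388-34255417, minus strand: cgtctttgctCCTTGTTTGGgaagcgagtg
Lmod1, 189 bases before the start, chr1:135324614-135324643, plus strand: gcccccttgtCTTTAAAAGGctaaactgct
Lmod1, 164 bases before the start, chr1:135324639-135324668, plus strand: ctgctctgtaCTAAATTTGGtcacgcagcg
The RefSeq start of Acta2 lies inside the GENCODE span of the gene used for the other coordinates here, so both Acta2 windows do too. No box was found in the windows of Cnn1, Pln, Tpm2, Des and Actn1, which says only that these letters are not in those bases.

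The libraries held 69392755 to 104023002 UMIs, and 44360 of 59429 cells passed the limits set on gene number and mitochondrial share. Libraries shared 33 to 88 cell barcodes per pair, at most 0.562% of the smaller library. Clusters were named from marker genes, and 4 of the 5 smooth muscle markers (Myh11, Lmod1, Pln and Cnn1, beside Map3k7cl) are themselves among the 10 genes, so their height in this class follows in part from the naming. In all, 4370 cells in 4 clusters were smooth muscle-like, 759 of the sham library and 948, 907 and 1756 of days 1, 3 and 7. Their median depth was 6984, 4065, 5847 and 5394 UMIs in the same order. Myh11 was detected in 96.6% of them, Pln in 88.6%, Lmod1 in 82.1%, Map3k7cl in 80.6% and Cnn1 in 41.1%, whereas the pericyte markers Anpep, Abcc9 and Kcnj8 were detected in 2.47%, 2.72% and 4.00%, Atp13a5 in 9.47% and Cd248 in 29.1%. A single cluster, of 2049 cells, was pericyte-like, and its cells held Atp13a5 in 91.2%, Abcc9 in 84.3%, Kcnj8 in 77.8%, Cd248 in 59.4% and Anpep in 41.7%. Each endothelial marker was detected in 17.9% to 25.7% of smooth muscle-like cells and in 17.8% to 24.8% of pericyte-like cells. Another cluster, of 245 cells, was fibroblast-like, with Dcn in 91.8% of cells.

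Of these clusters, 2 stood apart and are given with and without. The first is the smallest smooth muscle-like cluster, led by the long non-coding RNA Carmn, with 57, 122, 83 and 356 cells. Doublet scores marked 54.4% to 82.8% of its cells per library, against 0.769% to 12.9% in the other 3. Its endothelial markers summed to 6653 to 11901 CPM (UMIs scaled to a total of 1e6 per sum of cells) and its oligodendrocyte markers to 433 to 3192 CPM. The second is a cluster of 1001 cells led by the chemokine gene Ccl19, which held 3 smooth muscle and all 5 pericyte markers. With Cd248 and Col3a1 among its leading genes it was left unnamed and kept apart as the Ccl19-led mural cluster, a choice made after its genes were seen.

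Among these 3 mural groups, each of the 10 genes was highest in smooth muscle-like cells in every library, intermediate in the Ccl19-led cluster and lower in pericyte-like cells, apart from Cnn1, which had 0 or 1 UMI in both of the latter. The summed 10 genes made up 6.31%, 5.32%, 6.44% and 5.45% of all UMIs of smooth muscle-like cells in sham and on days 1, 3 and 7. In the Ccl19-led cluster they made up 1.00% to 1.27%, and in pericyte-like cells 0.186% to 0.301%. Endothelial-like cells held 0.017% to 0.029% and oligodendrocyte-like cells 0.006% to 0.017%. Part of the endothelial-like sum was Actn1, at 1.25 to 3.04 UMIs per Acta2 UMI, against 0.020 to 0.038 in smooth muscle-like cells.

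Acta2, smooth muscle α-actin of the thin filament, lay between 17494 and 23651 CPM in smooth muscle-like cells. It lay between 2497 and 3807 CPM in the Ccl19-led cluster, 65.7 and 109 CPM in pericyte-like cells and 23.0 and 62.0 CPM in endothelial-like cells. Tagln, the actin-binding protein transgelin, had the same order, with 14814 to 17315 CPM in smooth muscle-like and 45.1 to 83.9 CPM in pericyte-like cells. Per Acta2 UMI, pericyte-like cells held 0.581 to 0.767 Tagln UMIs, a range that overlaps the 0.651 to 0.908 in endothelial-like cells and the 0.717 to 0.860 in smooth muscle-like cells.

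Myl9 stood out by its level outside smooth muscle. This regulatory light chain gene of myosin reached 1250.2 to 2282 CPM in pericyte-like cells, against 29.9 to 45.2 CPM in endothelial-like cells. Per Acta2 UMI, pericyte-like cells held 15.1 to 34.7 Myl9 UMIs, whereas smooth muscle-like cells held 0.373 to 0.512. Desmin, β-tropomyosin and the myosin heavy chain were also above endothelial-like cells in pericyte-like cells. Des lay between 124 and 204 CPM in pericyte-like cells and between 3.72 and 7.61 CPM in endothelial-like cells. Tpm2 lay between 177 and 272 CPM in pericyte-like cells and between 13.1 and 34.7 CPM in endothelial-like cells. Myh11 lay between 53.7 and 110.1 CPM in pericyte-like cells and between 4.98 and 23.9 CPM in endothelial-like cells, and per Acta2 UMI pericyte-like cells held 0.722 to 1.33 Myh11 UMIs, against 0.122 to 0.296 in smooth muscle-like cells. The pericyte-like values per Acta2 UMI depend on the clustering. Without integration these cells held 420 Acta2, 163 Myh11 and 2396 Myl9 UMIs in sham, and 2855, 303 and 3923 on day 1. Both values per Acta2 UMI were thus far lower there, with Acta2 at 390 CPM in sham and 1445 CPM on day 1. Actn1, the actin cross-linker α-actinin 1, was found in all these classes, and its 44.1 to 48.6 CPM in pericyte-like cells were below the 70.1 to 77.3 CPM of endothelial-like cells.

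**Figure D1:**
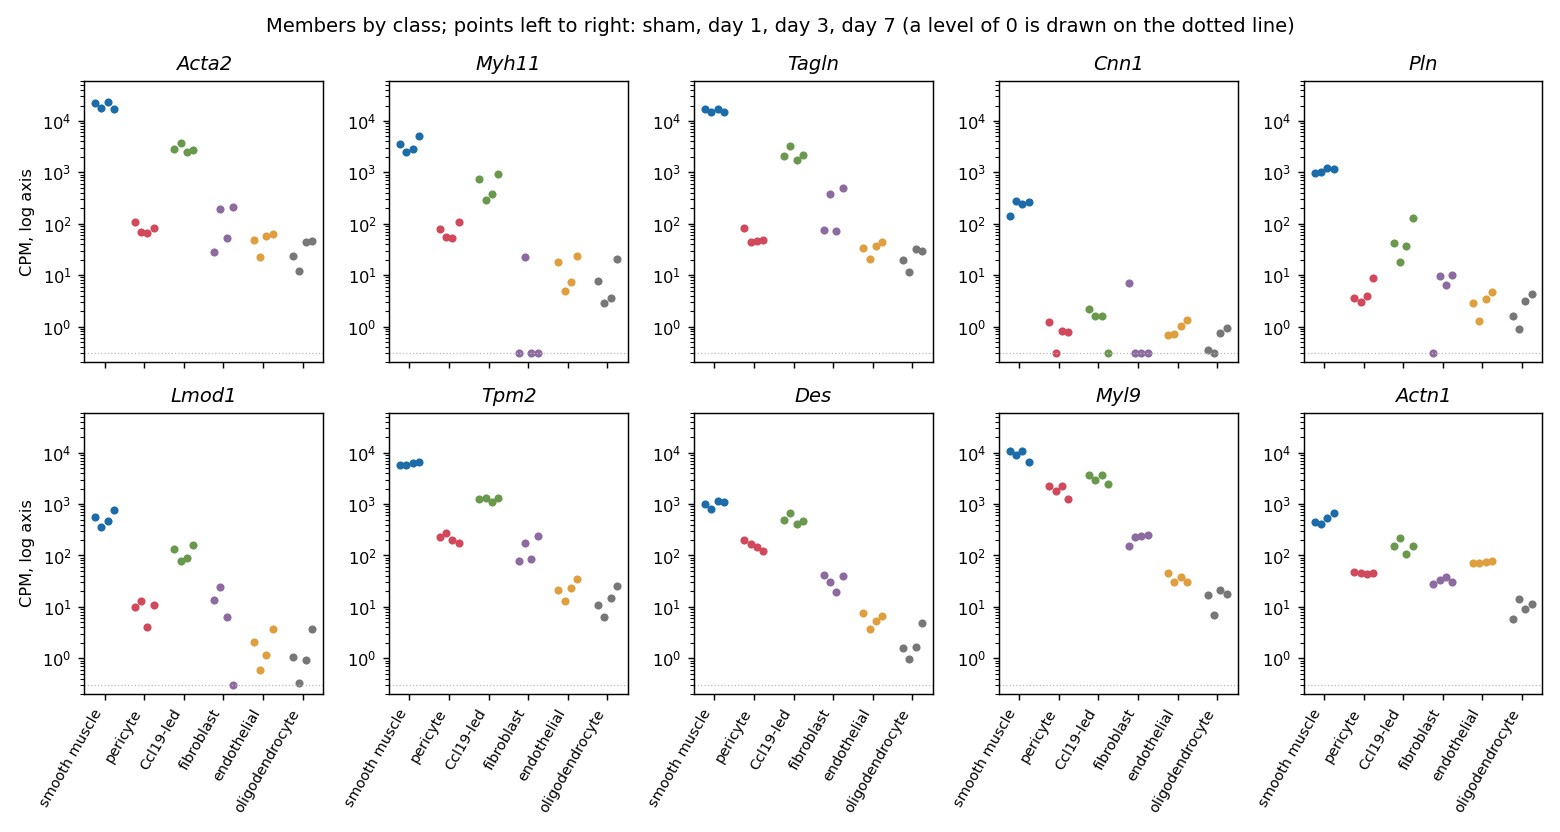
Summed level of each gene in CPM (log axis) by class, with 1 point per library (sham, days 1, 3 and 7 from left to right). Smooth muscle-like cells are highest throughout, and the pericyte-like points of Myl9, Des, Tpm2, Myh11, Lmod1, Acta2 and Tagln lie above the endothelial-like ones in each library, by most for Myl9 and Des.

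The question put to smooth muscle-like cells was how far each gene on days 1, 3 and 7 lay from sham. Each gene was called past 1.5-fold on the scale log2((day CPM + 10)/(sham CPM + 10)), and intervals at 95% are exact Poisson ones for a level and exact conditional ones for a ratio. They cover counting error alone and leave out the spread between mice and between preparations. On day 1, 1 of the 10 genes was higher past 1.5-fold (Cnn1), as were 8.77% of all 6235 genes tested, and 1 was lower (Lmod1), as were 4.52%. On day 3, 1 was higher (Cnn1), as were 2.16% of 6017 genes, and none was lower, against 1.35%. On day 7, 2 were higher (Cnn1 and Actn1), as were 13.6% of 6370 genes, and 1 was lower (Myl9), as were 2.06%. The median log2 ratio of the 10 genes was -0.22, 0.09 and 0.21 on days 1, 3 and 7, against -0.01, 0.08 and 0.11 for all genes tested. The day 1 median was above 0 under some settings, at 0.24 with a mitochondrial limit of 5% and 0.067 with clusters made without integration, so it has no stable direction. Across 17 alternatives Cnn1 stayed past 1.5-fold on each day in all 17, Myl9 on day 7 in 16, Actn1 on day 7 in 11 and Lmod1 on day 1 in 10.

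Among the thin filament genes, Acta2 (ENSMUSG00000035783, chr19:34241090-34255590, minus strand of GRCm38 in GENCODE vM21, as all coordinates of genes here) measured 22517 CPM in sham and 17698, 23651 and 17494 CPM on days 1, 3 and 7. Days 1 and 7 were lower than sham and day 3 was close to it, with ratios of 0.786 (0.779 to 0.793), 1.05 (1.04 to 1.06) and 0.777 (0.771 to 0.783), all within 1.5-fold. With a mitochondrial limit of 5% the log2 ratio of Acta2 turned from -0.35 to 0.27 on day 1 and was 0.84 on day 3. Tpm2 (ENSMUSG00000028464, chr4:43514711-43523765), the tropomyosin that lies along actin, measured 5769, 5839, 6230 and 6496 CPM. Its ratios to sham ran from 1.01 to 1.13, but with a mitochondrial limit of 5% its log2 ratio was 0.71 on day 1 and 0.96 on day 3. Tagln (ENSMUSG00000032085, chr9:45929619-45936058) measured 17315, 15215, 16967 and 14814 CPM, with ratios of 0.879, 0.98 and 0.856. With that limit its log2 ratio turned from -0.19 to 0.40 on day 1 and from -0.03 to 0.69 on day 3. Its direction held in 13 of 17 alternatives on day 1 and in 12 on day 3. Tagln overlaps Pcsk7 and Gm48529 on the other strand, which summed to 15.8 to 19.6 and 24.8 to 69.5 CPM in the same cells.

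In the reported setting Cnn1 differed most from sham, and did so on every day. Scaled to a median of 0, Myl9 differed more on day 7, at a log2 ratio of -0.83. Cnn1 (ENSMUSG00000001349, chr9:22099216-22109630) codes for calponin, which binds actin and tropomyosin and slows the myosin ATPase. It measured 145 CPM in sham (134 to 155, from 729 UMIs), then 281 CPM on day 1 (265 to 298), 244 CPM on day 3 (231 to 258) and 263 CPM on day 7 (252 to 273). All 3 libraries after tMCAO lay above sham, and their intervals did not overlap that of sham. The ratios were 1.95 (1.77 to 2.14), 1.69 (1.54 to 1.86) and 1.82 (1.67 to 1.98), or 0.91, 0.72 and 0.82 on the log2 scale.

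Lmod1 (ENSMUSG00000048096, chr1:135324807-135368065), a leiomodin that starts new actin filaments in smooth muscle, moved both ways. It measured 566 CPM in sham, 350.4 CPM on day 1, 478 CPM on day 3 and 766 CPM on day 7. Day 1 was the lowest and day 7 the highest library, with ratios of 0.619 (0.580 to 0.660), 0.843 (0.798 to 0.890) and 1.35 (1.29 to 1.41). Without the Carmn-led cluster the day 1 ratio was 0.700 and no longer past 1.5-fold.

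For the thick filament, Myh11 (ENSMUSG00000018830, chr16:14194535-14291372), the smooth muscle myosin heavy chain, followed the same course as Lmod1. It measured 3559 CPM in sham, 2511 CPM on day 1, 2896 CPM on day 3 and 5174 CPM on day 7. The ratios were 0.705 (0.688 to 0.723), 0.814 (0.796 to 0.832) and 1.45 (1.43 to 1.48), and without the Carmn-led cluster the day 7 ratio was 1.51, past 1.5-fold. With the mitochondrial limit of 5% the log2 ratio of Myh11 turned from -0.50 to 0.058 on day 1 and from -0.30 to 0.37 on day 3, and that of Lmod1 went from -0.68 to -0.083 on day 1 and turned from -0.24 to 0.50 on day 3, while both stayed higher on day 7. Myl9 (ENSMUSG00000067818, chr2:156775420-156781658), the light chain that the kinase phosphorylates, went the other way on day 7. It measured 10774 CPM in sham, 9069 CPM on day 1, 11005 CPM on day 3 and 6522 CPM on day 7. The day 7 library was the lowest, at a ratio of 0.605 (0.598 to 0.612), while days 1 and 3 were within 1.5-fold at 0.842 and 1.02. With the mitochondrial limit of 5% the Myl9 log2 ratio turned from -0.25 to 0.30 on day 1 and was 0.74 on day 3, past 1.5-fold. In smooth muscle-like cells, Myh11 UMIs per Acta2 UMI were 0.158 in sham, 0.142 on day 1, 0.122 on day 3 and 0.296 on day 7. Myl9 UMIs per Acta2 UMI were 0.478, 0.512, 0.465 and 0.373 in the same order.

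Pln (ENSMUSG00000038583, chr10:53337667-53345987), phospholamban, holds back the calcium pump of the sarcoplasmic reticulum. It measured 956, 1001, 1204 and 1144 CPM, with ratios of 1.05, 1.26 and 1.20, all above sham and within 1.5-fold. Pln overlaps Cep85l on the other strand, which measured 17.4 to 43.7 CPM. Of the genes that anchor the filaments, Des (ENSMUSG00000026208, chr1:75360329-75368579), the intermediate filament protein desmin, measured 1013, 791, 1166 and 1106 CPM, lowest on day 1 and within 1.5-fold on each day. With a mitochondrial limit of 5% its log2 ratio turned from -0.35 to 0.030 on day 1 and was 0.75 on day 3, past 1.5-fold. Actn1 (ENSMUSG00000015143, chr12:80167547-80260371), which binds actin ends in dense bodies, measured 441, 404, 546 and 669 CPM. Its ratios to sham were 0.918 (0.861 to 0.979), 1.24 (1.17 to 1.31) and 1.52 (1.45 to 1.60), and the last one was just past 1.5-fold. The day 1 direction held in 11 of 17 alternatives, with a log2 ratio of 0.20 without integration. On day 3 the log2 ratio was 0.71 with the mitochondrial limit of 5%. In endothelial-like cells Actn1 stayed at 70.1 to 77.3 CPM. Actn1 overlaps Gm47765 on the same strand, not analysed here, and Gm47767 and Gm47766 on the other strand, at 5.52 to 8.53 and 0.198 to 0.395 CPM.

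**Figure D2:**
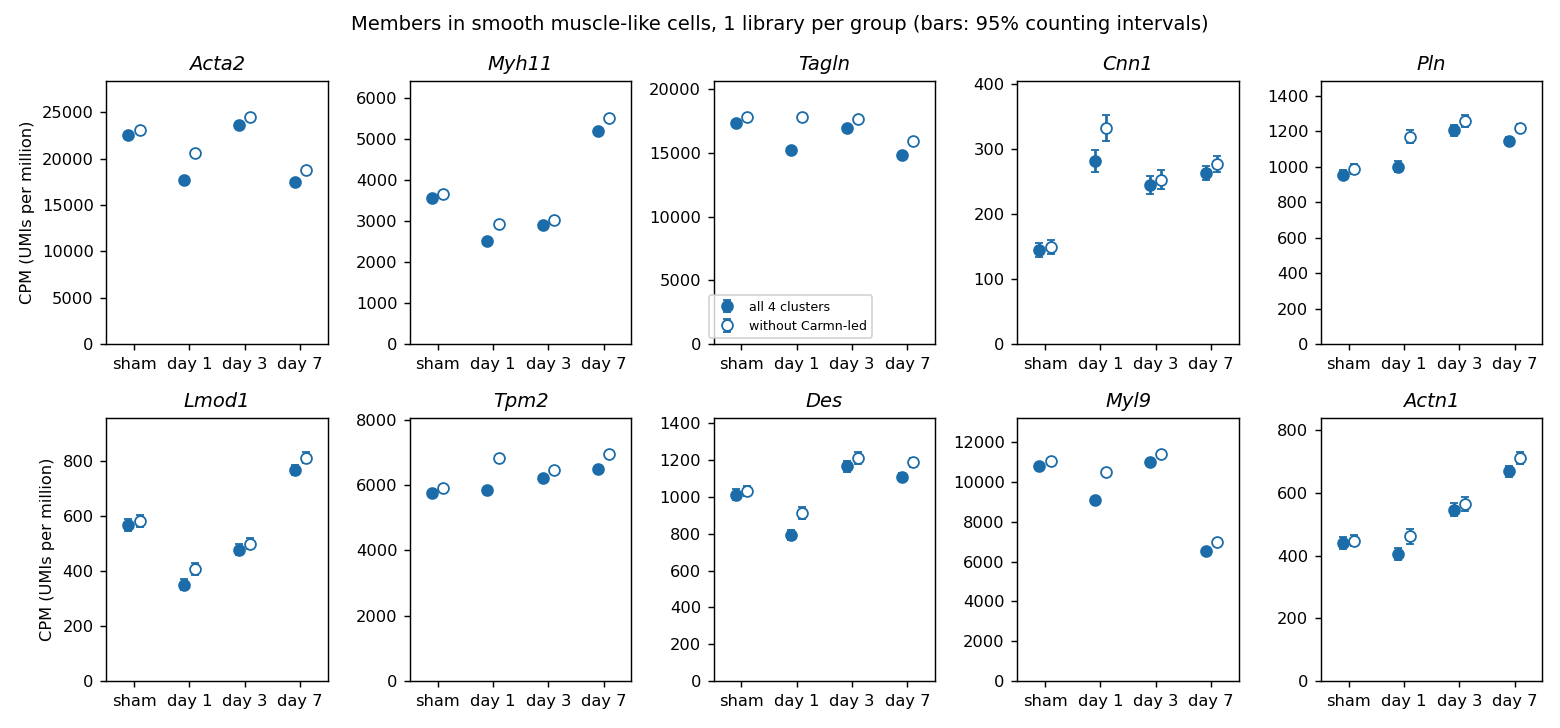
Level of each gene in smooth muscle-like cells in CPM (axis from 0) by library, with 95% counting intervals. Filled points hold all 4 clusters and open points leave out the Carmn-led one, which moves day 1 most, and Cnn1 lies at 145 CPM in sham and at 244 to 281 CPM afterwards.

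Each of the 4 smooth muscle-like clusters was also summed on its own. The clusters led by Rrad, Olfr558 and Cnn1 held 359, 213 and 130 sham cells. The clustering used these genes, so their order between clusters is a description. Cnn1 was lowest in the Olfr558-led cluster, at 10.2 CPM in sham (13 UMIs), and highest in the Cnn1-led one, at 309 CPM. In the Rrad-led cluster Cnn1 measured 159, 303, 268 and 249.9 CPM in sham and on days 1, 3 and 7. In the Cnn1-led cluster it measured 309, 733, 451 and 582 CPM. In the Olfr558-led cluster it measured 10.2, 34.1, 23.97 and 43.8 CPM. All 3 days lay above sham in these 3 clusters. The Carmn-led cluster, with 6 and 21 Cnn1 UMIs in sham and on day 1, had a day 1 ratio of 0.994.

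Within all 4 clusters, Myl9 was lower than sham on day 7, at ratios of 0.581 to 0.852, and Myh11 was higher, at 1.45 to 2.27. Lmod1 was lower on days 1 and 3 in all 4, at 0.399 to 0.781 and 0.765 to 0.931, and higher on day 7 in all 4, at 1.27 to 2.50. Actn1 was higher on day 7 in all 4, at 1.39 to 1.66. Acta2 was lower on day 1 in all 4, at 0.414 to 0.945, but on day 7 it was lower in 3 and higher in the Carmn-led one. The part of the clusters' changing shares in the summed levels was not tested.

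**Figure D3:**
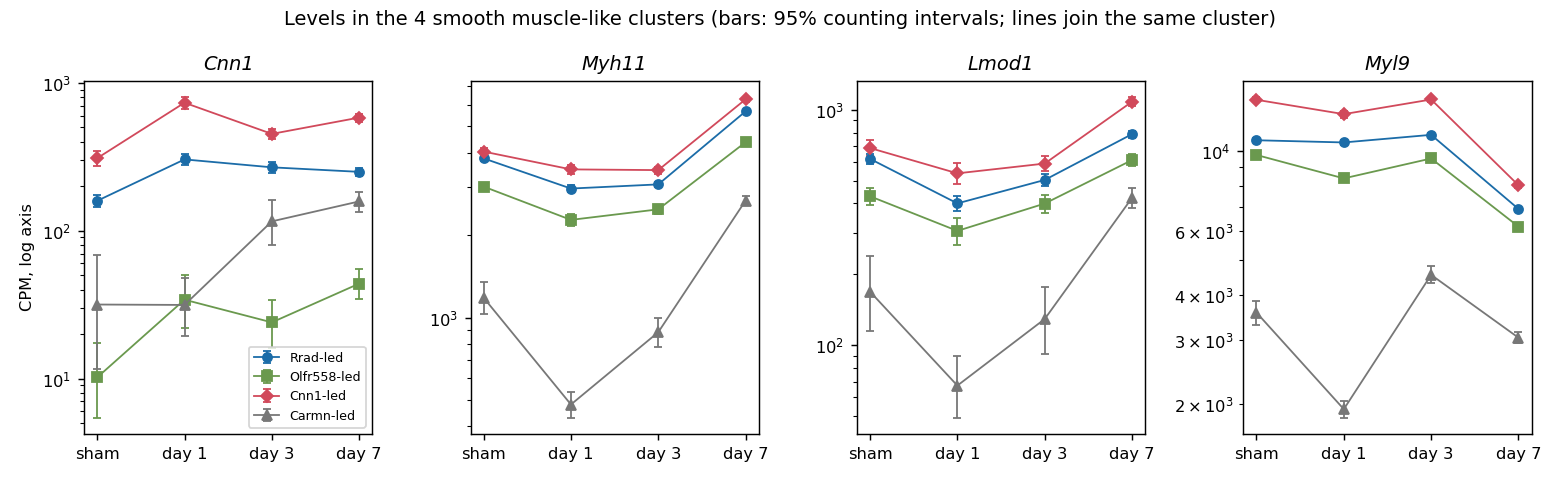
Level of Cnn1, Myh11, Lmod1 and Myl9 in CPM (log axis) by library in each of the 4 smooth muscle-like clusters, with 95% counting intervals and lines joining the same cluster. Myh11 and Lmod1 are highest and Myl9 is lower than in sham on day 7 in every cluster, and the Carmn-led cluster has its lowest Myh11, Lmod1 and Myl9 on day 1.

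Cell by cell, each cell was thinned to 1000 UMIs, which left out 21, 9, 8 and 93 smooth muscle-like cells of the 4 libraries. A Cnn1 UMI was then found in 10.2% of sham cells (8.08% to 12.6%, Clopper-Pearson interval) and in 19.8%, 17.8% and 18.6% on days 1, 3 and 7. This interval too covers counting error in 1 library and does not count cells as replicates of a day. Without thinning, at median depths of 6984, 4065, 5847 and 5394 UMIs, these shares were 36.2%, 38.7%, 43.8% and 43.2%. In oligodendrocyte-like cells, which should lack the gene, 0 of 758, 2345, 839 and 1237 thinned cells held a Cnn1 UMI, which allows shares of up to 0.396%, 0.128%, 0.358% and 0.243%, taken as 3 cells of the total. Without thinning these cells held 2, 3, 4 and 7 Cnn1 UMIs, so the limits hold for the thinned depth only.

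Lmod1 UMIs were found in 43.5%, 27.1%, 36.6% and 49.9% of thinned smooth muscle-like cells, again with day 1 lowest and day 7 highest. Actn1 UMIs were found in 35.8%, 32.7%, 38.6% and 45.6%. Acta2 was found in 98.1%, 93.0%, 99.0% and 97.2% of the cells and Myl9 in 97.3%, 94.2%, 98.6% and 95.3%, so for these 2 genes a share says little about level. A thinned smooth muscle-like cell held UMIs of a median of 7 of the 10 genes in all 4 libraries. The share of cells with 5 or more of the genes was 96.6%, 87.9%, 96.1% and 94.7%, and without the Carmn-led cluster it was 98.4%, 96.5%, 98.9% and 99.5%.

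Several measures moved with these differences, and their part in them was not tested. Endothelial markers in smooth muscle-like cells without the Carmn-led cluster, namely Cldn5, Ly6c1, Ly6a and Itm2a, summed to 144 CPM in sham, 1398 CPM on day 1, 383 CPM on day 3 and 286 CPM on day 7. Oligodendrocyte markers in the same cells summed to 33.4, 40.2, 18.7 and 32.6 CPM. In these cells Cnn1 had ratios of 2.23, 1.69 and 1.86 on days 1, 3 and 7, as large as with the Carmn-led cluster, and Myl9 had a day 7 ratio of 0.633. The median mitochondrial share of smooth muscle-like cells was 6.46% in sham, 4.84% on day 1, 4.69% on day 3 and 6.61% on day 7. Among cells above 5% mitochondrial UMIs, Cnn1 measured 162 CPM in sham and 358, 290.0 and 285 CPM afterwards, and Myl9 measured 11450 CPM in sham and 6981 CPM on day 7. At or under 5% there were 127 sham cells, 40 of them in the Carmn-led cluster. There Cnn1 measured 24.6 CPM in sham (16 UMIs) and 227, 215 and 145 CPM afterwards, which put its log2 ratios at 2.78, 2.70 and 2.16 in place of 0.91, 0.72 and 0.82. Acta2 measured 12836 CPM in sham and 22983 CPM on day 3, so that 8 of the 10 genes were past 1.5-fold higher on day 3 under that limit, as were 6.02% of 6683 genes tested, and none was lower, against 10.3%. On day 1 under the limit 2 were higher, against 9.08% of 6798 genes, and none was lower, against 11.1%. On day 7 under the limit 4 were higher, against 19.5% of 7105 genes, and 1 was lower, against 6.11%.

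Gene length moved with the day 7 ratios. In smooth muscle-like cells, all genes tested were put in 4 equal bins by their span in the annotation, and the median log2 ratio of day 7 to sham was -0.19, -0.02, 0.22 and 0.42 from the shortest to the longest bin. In pericyte-like cells it was -0.21, 0.00, 0.24 and 0.44, and in endothelial-like cells -0.17, -0.04, 0.16 and 0.32. Across 6368 genes the rank correlation of span and day 7 ratio was 0.51 in smooth muscle-like cells, against -0.06 on day 1 and -0.18 on day 3, with the sham library shared by all. The longest of the 10 genes are Myh11 (96.8 kb), Actn1 (92.8 kb) and Lmod1 (43.3 kb), and the shortest are Myl9 (6.24 kb) and Tagln (6.44 kb). After the median of its bin was taken off, the day 7 log2 ratio was 0.11 for Myh11, 0.17 for Actn1, 0.21 for Lmod1 and -0.54 for Myl9, all within 1.5-fold. Cnn1, of 10.4 kb, was still past it at 0.84.

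**Figure D4:**
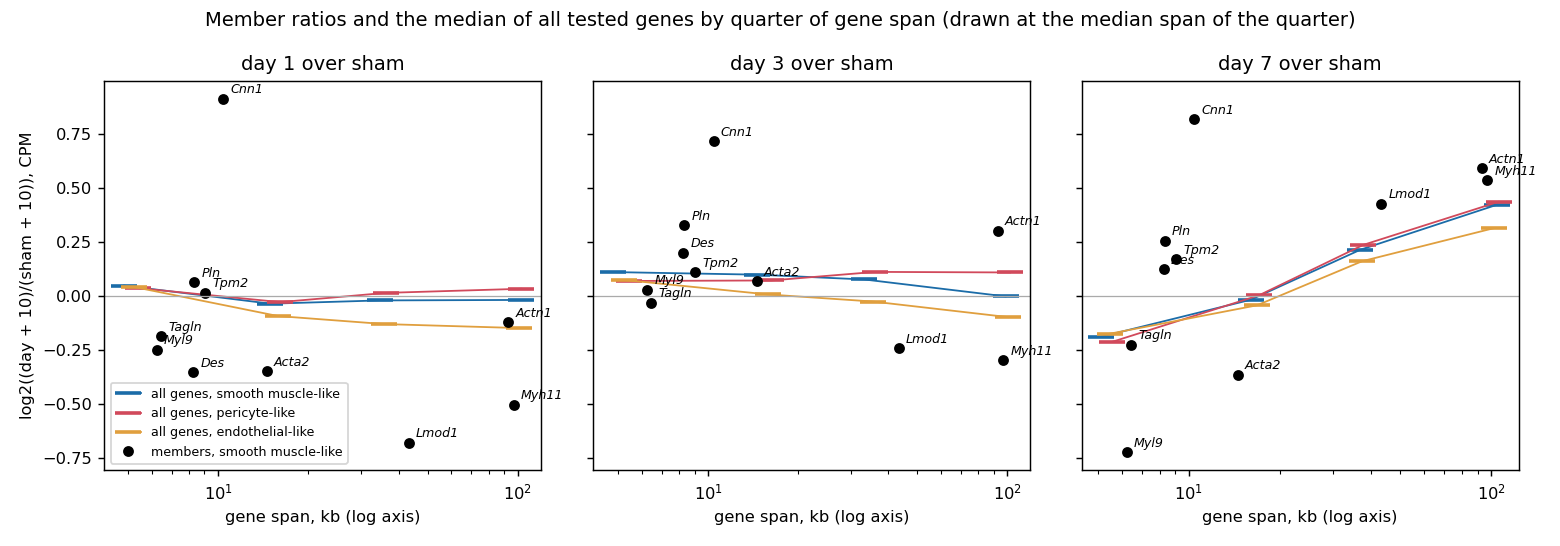
Log2 ratio to sham of the 10 genes in smooth muscle-like cells (points) against gene span in kb (log axis) on days 1, 3 and 7, with the median of all tested genes per span bin in 3 classes (lines). On day 7 the lines climb from -0.21 to -0.17 in the shortest bin to 0.32 to 0.44 in the longest, and of the 10 genes Myl9 lies lowest and Cnn1 highest.

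In pericyte-like cells (296, 603, 564 and 586 cells), 7 of the 10 genes reached the 20 CPM needed for a call in sham or in the later library. Cnn1, Pln and Lmod1 did not, with 0 to 1, 3 to 11 and 5 to 14 UMIs per library. On day 1 none of the 7 was higher past 1.5-fold, against 9.01% of 7672 genes, and 1 was lower, against 7.99%. On day 3 none was higher, against 7.76% of 7760 genes, and 2 were lower, against 4.90%. On day 7 none was higher, against 17.1% of 7926 genes, and 3 were lower, against 6.26%. The median log2 ratio of the 7 genes was -0.29, -0.48 and -0.37, against 0.01, 0.09 and 0.12 for all genes tested. The medians were above 0 on days 1 and 7 when the Ccl19-led cluster was counted as pericytes, at 0.20 and 0.13, and without integration they were 0.45, 0.0025 and 0.17, so they have no stable direction. The calls moved as well. Without integration 4 of 8 genes tested were higher on day 1 and none was lower, against 7.41% and 8.35% of all genes. On day 3, 1 of 8 was higher and 1 lower there, against 5.57% and 3.9%. On day 7, 3 of 9 were higher and 1 was lower, against 13% and 3.77%.

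In the reported clustering, Myl9 carried most of the pericyte-like signal. It measured 2246 CPM in sham (1847 UMIs), 1837 CPM on day 1, 2282 CPM on day 3 and 1250.2 CPM on day 7. As in smooth muscle-like cells, day 7 was the lowest library, at a ratio of 0.557 (0.520 to 0.596). Thinned pericyte-like cells held a Myl9 UMI in 82.9%, 76.3%, 83.1% and 65.6% of cells, against 0.981% to 2.38% of oligodendrocyte-like cells. Thinning left out 39, 169, 78 and 77 pericyte-like cells of the 4 libraries. Des measured 204, 171, 143 and 124 CPM, and its day 7 ratio was 0.605 (0.483 to 0.756), past 1.5-fold, but within it at a log2 ratio of -0.19 with the Ccl19-led cluster counted in. Both Myl9 and Des are short genes, and short genes were lower on day 7 in this class too, with 14.8% of the shortest bin past 1.5-fold lower. Centred on gene length, Myl9 was still lower past 1.5-fold on day 7, at a log2 ratio of -0.63, while Des was within it at -0.47.

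Tagln measured 83.9 CPM in sham and 45.1, 46.5 and 48.0 CPM afterwards, lower past 1.5-fold on all 3 days as summed, and Acta2 was lower on day 3, at 109 and 65.7 CPM. The sums held 46 to 69 Tagln UMIs and 72 to 105 Acta2 UMIs. The Tagln difference had no stable size or direction. Thinned cells held 0.066 Tagln UMIs in sham and 0.037, 0.041 and 0.053 afterwards, in 5.84% of cells in sham (3.30% to 9.44%) and 4.91% on day 7 (3.20% to 7.17%). Without doublets Tagln measured 55.0 CPM in sham and 35.1, 48.7 and 50.7 CPM, within 1.5-fold on each day, and with the Ccl19-led cluster counted in it measured 795 CPM in sham and 1282, 603 and 936 CPM. Acta2 on day 3 was within 1.5-fold without doublets, at a log2 ratio of -0.53, and above sham at 1.00 in the clustering without integration. In sham and on days 1, 3 and 7, endothelial-like cells held 33.7, 20.9, 36.9 and 44.4 CPM of Tagln and 47.4, 23.0, 56.6 and 62.0 CPM of Acta2, below the pericyte-like level of the same library each time, and the part of free RNA in these differences was not tested. Myh11 measured 79.0, 54.9, 53.7 and 110.1 CPM, with a day 7 ratio of 1.39 (1.03 to 1.90). At resolution 0.5 its log2 ratio was -1.10 on day 1 and -0.99 on day 3. Without integration it was 0.018 on day 1 and 0.72 on day 7. Its level was also lower on days 1 and 3 and higher on day 7 in endothelial-like cells, at 18.1, 4.98, 7.38 and 23.9 CPM, and in oligodendrocyte-like cells, at 7.71, 2.85, 3.51 and 20.6 CPM. As summed, Tpm2 and Actn1 stayed within 1.5-fold on all days, Actn1 at 44.1 to 48.6 CPM. Without integration both were higher past 1.5-fold on day 1, at log2 ratios of 0.77 and 0.64.

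The Ccl19-led mural cluster held 152, 272, 247 and 330 cells. Its Cnn1 count was 0 or 1 UMI per library, against 950 to 2055 UMIs of Tagln, and per Acta2 UMI it held at most 0.001 Cnn1 UMIs, against 0.006 to 0.016 in smooth muscle-like cells. Of the 9 genes tested there, 3 were lower past 1.5-fold on day 1 (Myh11, Pln and Lmod1), as were 18% of 7487 genes, and 1 was higher in the summed counts (Tagln), as were 11.3%, though its mean per cell at equal depth was not past 1.5-fold. On day 3, 1 was lower (Myh11), against 7.23% of 7701 genes, and none was higher, against 11.6%. On day 7, 1 was higher (Pln), against 12.8% of 7686 genes, and none was lower, against 6.9%. Myh11 measured 751 CPM in sham, 292 CPM on day 1, 377 CPM on day 3 and 922 CPM on day 7. Days 1 and 3 lay below sham at ratios of 0.389 (0.323 to 0.467) and 0.502 (0.423 to 0.595), and day 7 above it at 1.23.

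Tagln measured 2069, 3321, 1738 and 2213 CPM in the Ccl19-led cluster, highest on day 1 at a ratio of 1.61 (1.49 to 1.74). In cells thinned to 1000 UMIs it was found in 53.4% of sham cells and in 35.0%, 35.4% and 55.9% afterwards, at a mean of 1.76, 1.84, 1.12 and 1.91 UMIs per cell, and its upper quartile was 3 UMIs in sham and 1 UMI on day 1. The summed level on day 1 was thus higher while fewer cells held the gene and the thinned mean was nearly that of sham. Acta2 measured 2814, 3807, 2497 and 2770.5 CPM and stayed within 1.5-fold. Its day 1 direction turned at equal depth, with 2.21 UMIs per thinned cell in sham and 1.95 on day 1, in 61.1% and 44.1% of cells. Thinning left out 21 sham and 52 day 1 cells of this cluster and weighted the rest equally, so depth was not the only change. Pln measured 41.4 CPM in sham (19 UMIs), 17.8 CPM on day 1, 37.5 CPM on day 3 and 132 CPM on day 7. The day 7 ratio was 3.20 (1.96 to 5.51), from 117 UMIs. Myl9 measured 3643, 2988, 3661 and 2471 CPM, lowest on day 7 here too, at a ratio of 0.678 and within 1.5-fold.

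**Figure D5:**
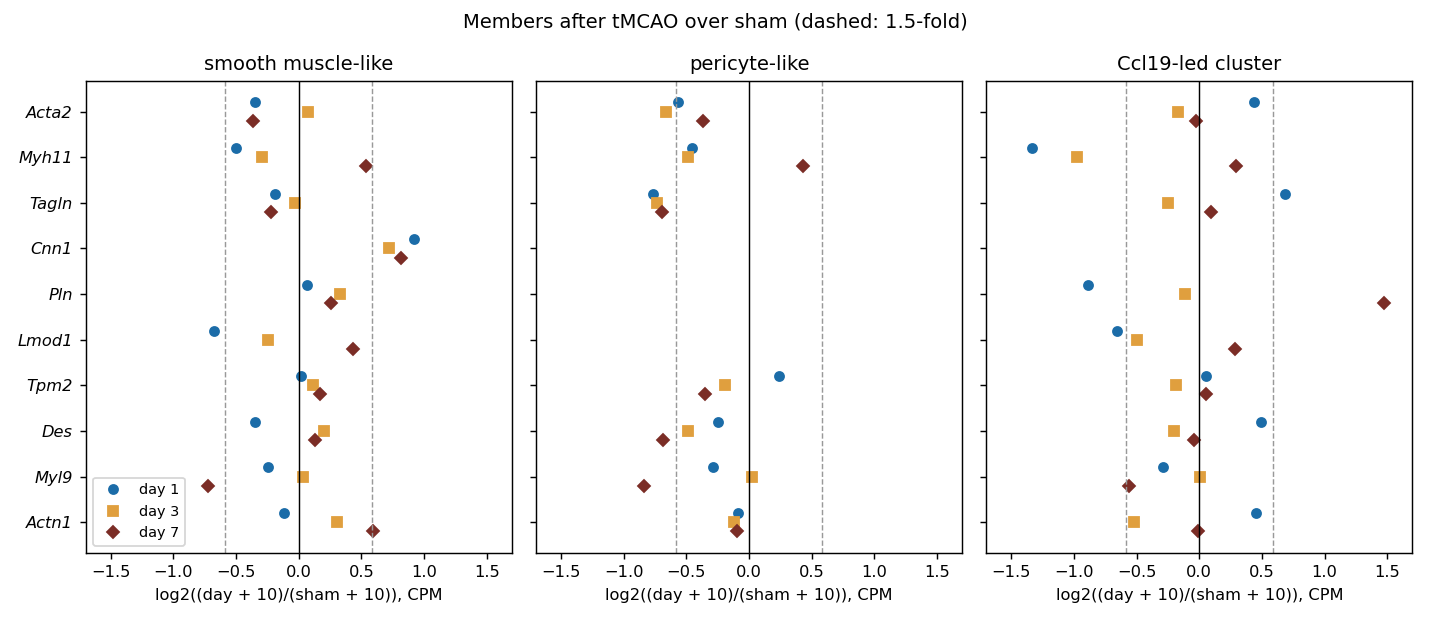
Log2((day CPM + 10)/(sham CPM + 10)) of each gene on days 1, 3 and 7 in smooth muscle-like cells, pericyte-like cells and the Ccl19-led cluster, with dashed lines at 1.5-fold and no point for genes under 20 CPM. Day 7 Myl9 lies to the left in all 3 panels, Cnn1 lies to the right in smooth muscle-like cells, and Myh11 lies to the left on days 1 and 3 and to the right on day 7 in each panel.

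Fibroblast-like cells numbered 31 in sham and on day 7, so the days were not compared. On day 1, with 133 cells, Tagln measured 386 CPM, Acta2 194 CPM, Myl9 224 CPM and Tpm2 177 CPM. The smooth muscle markers Myh11, Pln and Lmod1 were at 0 to 24.5 CPM across the 4 libraries. None of the 10 genes was found in more than 19.6% of thinned fibroblast-like cells in any library. Outside the vessel wall, 7 of the 10 genes were highest in ependymal-like cells on day 3 (116 cells), with 1754 CPM of Acta2, 1503 CPM of Tagln and 969 CPM of Myl9. Lmod1 and Des were highest in choroid plexus-like cells on day 3, at 31.1 and 103 CPM, and Actn1 in neutrophil-like cells on day 3, at 261 CPM. Choroid plexus-like cells on day 3 held 1608 CPM of Acta2 and 1397 CPM of Tagln, against 56.7 and 31.8 CPM in sham, while oligodendrocyte-like cells on day 3 held 43.8 and 31.6 CPM. In neuron-like cells the 10 genes made up 0.034% of UMIs in sham and 0.316% on day 3, against 0.022% and 0.025% in microglia-like cells. Doublet scores marked 4.31% of the ependymal-like and 4.71% of the choroid plexus-like cells of that day, and the part of doublets or of smooth muscle RNA in these levels was not tested.

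Other genes of contraction were followed as 7 lists in smooth muscle-like cells. On day 1, of the 15 tested matrix genes and other genes of the dedifferentiated state, 7 were past 1.5-fold higher and none was lower, beside 8.77% and 4.52% of all genes tested that day. Among them fibronectin (Fn1) measured 25.2 CPM in sham and 151 CPM on day 1, and collagen III (Col3a1) 28.0 and 99.3 CPM. Osteopontin (Spp1) measured 0.595 CPM in sham (3 UMIs) and 208 CPM on day 1, a ratio of 349.9 (119 to 1700.0), and the protease inhibitor Timp1 0.991 and 21.3 CPM. Without the Carmn-led cluster the log2 ratio of Spp1 was 1.99 in place of 4.36, while that of Fn1 was 2.16 in place of 2.19. On the same day Spp1 measured 2499 CPM in microglia-like and 5060.3 CPM in fibroblast-like cells, and Fn1 measured 1055 CPM in endothelial-like cells. Col3a1 measured 1055 CPM and Timp1 383 CPM in fibroblast-like cells that day. The part of all these cells' RNA in the differences of Spp1, Fn1, Col3a1 and Timp1 was not tested.

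On day 1, 2 of 18 thin filament partners were higher and 1 was lower, shares near the 8.77% and 4.52% of all genes, which are the background for each list on that day. Actg2, the enteric smooth muscle actin, measured 29.9 CPM in sham and 74.0 CPM on day 1, and remained higher on day 3 at 68.1 CPM. Synpo2, an actin-bundling protein, measured 69.4 and 112 CPM, and Tln1 (talin) 441 and 255 CPM. Of 12 genes of the light chain kinase and phosphatase, none was higher and 2 were lower on day 1: Rock1, a kinase that acts on the phosphatase, at 589.8 and 379 CPM, and Prkg1, the cGMP-dependent kinase, at 73.2 and 39.5 CPM. Without the Carmn-led cluster the log2 ratio of Rock1 was -0.52 and within 1.5-fold, and that of Prkg1 was -0.63. Gucy1a1, a subunit of the nitric oxide receptor, was the 1 lower gene of 8 vasoactive receptor and cyclic nucleotide genes, at 467 and 240 CPM. No gene of 15 for calcium handling was past 1.5-fold on day 1. Of the transcriptional regulators Mkl2, a myocardin relative, was higher, at 18.2 and 41.5 CPM. In endothelial-like cells Mkl2 measured 188 CPM that day, and the part of their RNA in this difference was not tested. None of the 8 immediate-early genes was past 1.5-fold on day 1.

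On day 3, 3 of 86 list genes tested were higher past 1.5-fold, namely Actg2, Fn1 at 61.8 CPM and Fosb at 748 CPM against 431 CPM in sham, and none was lower. The 2.16% higher and 1.35% lower among all genes that day are near these shares. On day 7 the lists held 27 higher genes and 1 lower one, on a day when 13.6% of all genes tested were higher and 2.06% were lower. Higher were 4 of 18 thin filament partners, among them caldesmon (Cald1, 1757 CPM in sham and 2826 CPM on day 7), Sorbs2 (681 and 1107 CPM), Synpo2 (69.4 and 147 CPM) and the integrin Itga8 (83.9 and 137 CPM). Of the light chain kinase and phosphatase genes 5 of 12 were higher, among them the phosphatase subunits Ppp1r12a (689 and 1132 CPM) and Ppp1cb (354 and 621 CPM), Rock2 (228 and 395 CPM) and Arhgef12 (149 and 263 CPM). Of the calcium genes 5 of 15 were higher, among them the ryanodine receptor Ryr2 (32.3 and 73.1 CPM), the potassium channel Kcnma1 (36.1 and 64.4 CPM), the calcium sensor Stim1 (93.0 and 148 CPM) and the calcium pump Atp2b4 (194 and 322 CPM). Pde3a, a phosphodiesterase, was the 1 higher gene of 9 vasoactive and cyclic nucleotide genes (331 and 533 CPM).

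Of 12 tested transcriptional regulators, 5 were higher on day 7 and 1 was lower, again beside 13.6% and 2.06% of all genes. Myocardin (Myocd) measured 39.1 CPM in sham and 85.9 CPM on day 7, a ratio of 2.20 (1.88 to 2.59). Mkl2 measured 18.2 and 40.7 CPM, beside 220 CPM in endothelial-like cells on day 7, and Tbx18 90.2 and 149.6 CPM. Foxs1 was the lower one, at 342 and 182 CPM. Of the matrix list 4 of 14 were higher, with Fn1 at 107 CPM, the non-muscle myosins Myh9 (113 and 205 CPM) and Myh10 (15.5 and 28.7 CPM) and the calponin Cnn3 (99.7 and 187 CPM). Of the immediate-early genes, which tissue dissociation is known to induce, 3 of 8 were higher, with Egr1 at 317 and 964 CPM, Fosb at 431 and 962 CPM and Nr4a1 at 571 and 864 CPM. Centred on gene length, 10 in place of 27 of the 88 list genes were higher on day 7 and 3 in place of 1 were lower, while the shares of all genes went from 13.6% to 5.87% higher and from 2.06% to 3.66% lower.

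Outside the 10 genes, those whose levels ran most like the mean of the 10 were ranked by Pearson correlation over 47 sums of 15 classes and 4 libraries, among 6705 genes of at least 100 CPM in 1 sum. The points share libraries and depth, so the values are a description. Of the genes that are not members, Map3k7cl came first with 0.97, and as a marker of the class it was part of the naming. It was followed by Pdlim3 (0.96), Dhx58os (0.95), Aoc3 (0.95), Gpr20 (0.94), Jph2 (0.94), Olfr558 (0.93) and Fbxl22 (0.93). Pdlim3, a protein of actin filaments, measured 345 to 434 CPM in smooth muscle-like cells and 0 to 3.20 CPM in pericyte-like ones. Jph2, which ties the sarcoplasmic reticulum to the cell membrane, measured 73.8 to 121 and 1.96 to 4.81 CPM. Of the 10 genes themselves, Tpm2 ran most like the mean of them all (0.97, rank 1 of all genes ranked), and Actn1 least (0.80), followed by Myl9 (0.90).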

How the data were processed

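The authors deposited whole-number UMI counts per gene and cell for 4 libraries, with no normalization applied. The file headers name Cell Ranger 4.0.0, whereas the submitters' notes name Cell Ranger 3.0.1 with Seurat 4.1.2 and the build GRCh38. The identifiers are those of mouse genes, and 30934 of 31053 (99.6%) were found in the GENCODE vM21 annotation of GRCm38, from which all gene coordinates were taken.

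A cell was used if it had between 200 and 3000 detected genes and a mitochondrial share no higher than 10%. These cells were clustered with Seurat 5.3.0 in R 4.3.3 (2000 variable genes, CCA integration, 30 dimensions, resolution 1), which gave 34 clusters. A cluster was named when at least 3 markers of a class were each detected in at least 10% of its cells and the leading genes did not go against the name. Doublet scores came from Scrublet in scanpy 1.11.5. Its automatic threshold marked 0.0142% to 4.61% of cells per library, so the highest scores were marked instead, up to 0.8% per 1000 cells. Marked cells were kept except in 1 alternative.

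UMIs were summed per class and library and divided by the sum's total (CPM), with 10 CPM added for log2 ratios and 20 CPM in 1 of both libraries required. With 1 library per group no test was possible. Intervals were computed with scipy 1.17.1. The named genes were the 10 members, up to 4 genes past 1.5-fold per list and day by size of the log2 ratio, and the 8 genes most like the members. The members and lists were chosen with earlier results of these data known. On simulated counts with 200 changed genes, 96.5%, 95.0% and 95.5% were recovered for days 1, 3 and 7 in smooth muscle-like cells, and 92.5%, 91.5% and 93.5% in pericyte-like cells, where 3.05%, 2.54% and 2.77% of unchanged genes were also called (0% in smooth muscle-like cells). These shares say nothing of differences between mice or preparations, which 1 library per group cannot show. Alternatives covered scaling, added CPM, fold, clustering, doublets, limits on cells, depth of thinning and, chosen after the data were seen, both clusters that stood apart and gene length. The bulk and proteomic experiments of the study were not used here.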

Additional observations from a re-analysis of the deposited data

How the results depend on the processing

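No paired analysis was possible because each group had 1 library. Each gene's log2 ratio was recomputed under 17 alternatives, and Cnn1 stayed past 1.5-fold higher on all 3 days in each of them. With the other settings as reported, 0 of the 10 genes were past 2-fold on days 1, 3 and 7, whereas Cnn1 with a mitochondrial limit of 5% had log2 ratios of 2.78, 2.70 and 2.16. The median log2 ratio of the 10 genes in smooth muscle-like cells on day 1, -0.22, became -0.27 with the Ccl19-led cluster counted in and -0.27 centred on gene length. It became 0.067 without integration, 0.0074 without integration, members and markers, -0.00073 without doublets, -0.059 with each cell called on its own, -0.14 as a mean over cells, -0.14 as a mean over clusters, 0.24 with a mitochondrial limit of 5%, -0.14 at resolution 0.5, -0.12 with up to 6000 genes per cell and -0.038 without the Carmn-led cluster. On day 3, 0.09 became -0.015 centred on gene length, 0.041 as a mean over clusters, 0.72 with the mitochondrial limit, 0.016 scaled to a median of 0 and 0.20 with up to 6000 genes. On day 7, 0.21 became 0.27 without doublets, 0.28 as a mean over clusters, 0.34 with the mitochondrial limit, 0.10 scaled to a median of 0, 0.39 with up to 6000 genes and 0.27 without the Carmn-led cluster. The number of the 10 genes past 1.5-fold on day 1 was 1 in place of 2 under both clusterings without integration, without doublets, with each cell called on its own, as a mean over clusters and without the Carmn-led cluster, settings that put 4.52% to 6.78% of all genes higher and 4.92% to 6.28% lower, against 8.77% and 4.52%. It was 8 in place of 1 on day 3 with the mitochondrial limit, which left 127 sham cells and put 6.02% of all genes higher and 10.3% lower. On day 7 it was 5 in place of 3 with that limit (19.5% of all genes higher, 6.11% lower) and as a mean over clusters (12.7% and 2.37%), and 1 centred on gene length (5.87% and 3.66%). In pericyte-like cells the median of -0.29 on day 1 became 0.20 with the Ccl19-led cluster counted in, 0.45 without integration, 0.23 without integration, members and markers and 0.20 at resolution 0.5. On day 3, -0.48 became 0.0025 without integration. On day 7, -0.37 became 0.13, 0.17 and 0.077 with the Ccl19-led cluster, without integration and at resolution 0.5. List genes past 1.5-fold numbered 14 on day 1, but 8 with 50 CPM added (3.13% of all genes higher, 1.17% lower) and 31 with the mitochondrial limit (9.08% and 11.1%). On day 3 there were 3, but 6 with 1 CPM added, centred on gene length or as a mean over clusters, 1 with 50 CPM added, 5 without integration, members and markers or with members, mitochondrial and ribosomal genes left out of the total, 9 with each cell called on its own, 25 with the mitochondrial limit, 7 with the oligodendrocyte-like level subtracted or scaled to a median of 0 and 8 with up to 6000 genes. Over these settings 0.532% to 7.87% of all genes were higher and 0.415% to 10.3% lower on day 3, against 2.16% and 1.35%. On day 7 there were 28 (13.6% and 2.06% of all genes), but 17 with 50 CPM added (3.20% and 0.675%), 13 centred on gene length and 16 scaled to a median of 0 (8.56% and 4.79%). The share of cells with a Cnn1 UMI was 5.40%, 11.8%, 8.05% and 10.5% in sham and on days 1, 3 and 7 at 500 UMIs, 19.3%, 29.1%, 28.3% and 29.4% at 2000 UMIs, and 36.2%, 38.7%, 43.8% and 43.2% without thinning. The cause of these shifts was not tested. Counting intervals leave out the spread between mice, so with 1 library per group a difference between days cannot be told apart from one between preparations.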
